A study of Vitis vinifera with 12 samples.

Results

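Berries of the red-skinned table grape Flame Seedless were compared at the first and last ages of a developmental course, 40 and 80 days after full bloom. Messenger RNA had been sequenced from the fruit at 4 ages, 40, 50, 60 and 80 days, with 3 libraries per age lettered a, b and c, and no treatment is given in the labels. The 6 libraries of 40 and 80 days, of 12 in all, form the comparison, and the 50- and 60-day libraries were used to describe the way between the ends. A gene model entered when its level reached 1 FPKM (fragments mapped to a gene model, divided by its length and by the library's mapped fragments) in at least 3 of these 6 libraries, which 14060 of 22580 identifiers did. The label protocol states that total RNA of 3 biological replicates was pooled after extraction. Whether a, b and c come from separate plants is not stated, and p-values measure no more than the differences among these libraries, which may be technical.

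A grape berry first grows as a hard green fruit that stores malate, tartrate and tannins. At veraison, the onset of ripening, it begins to soften, to import and store hexoses, to lose malate and, in red cultivars, to lay down anthocyanins in the skin. These changes are known to go with a wide shift in transcript levels, among them those of genes for cell wall remodelling, sugar transport, flavonoid synthesis and abscisic acid signalling. The labels give ages and no ripening stage, so the place of veraison on the course is not stated here. The identifiers were not paired with gene names or products in the sources used here: 0 of 22580 matched any of the 29591 genes that RefSeq lists for assembly ASM3070453v1. Which of the named pathways changed was therefore not analysed, the tissue was not checked against marker genes, and no function is given for any gene model. The gene models are described by level, direction, timing and place in the identifier order.

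Depth is unknown, since the deposited values are not counts. Summed FPKM was 982750 to 1056130 in the 40-day libraries and 1126525 to 1212608 in the 80-day libraries, without overlap (exact permutation test, two-sided, p = 0.1, adjusted 0.125 over 5 library measures). With 3 libraries against 3, 0.1 is the smallest p that this test can give. The number of gene models at 1 FPKM or more was 13791 to 14326 at 40 days and 13166 to 13567 at 80 days, again without overlap (exact permutation p = 0.1, adjusted 0.125). The 10 most abundant gene models held 20.03% to 23.2% of the summed FPKM at 40 days and 24.1% to 31.5% at 80 days (exact permutation p = 0.1, adjusted 0.125), and the 50 most abundant held 34.9% to 37.4% and 37.3% to 44.2%, which overlap slightly (p = 0.2 in the same exact test).

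Between the ends of the course, 1002 gene models rose and 2028 fell, so that falls were the more numerous direction at the thresholds used. Together they were 21.6% of the gene models tested, with 7.13% rising and 14.4% falling (limma, Benjamini-Hochberg adjusted p under 0.05 and a difference of at least 1 in log2(FPKM + 1)). The falls were also larger: their median difference was 1.62 on the log2 scale, against 1.41 for the rises. A difference of at least 2 was reached by 33.3% of the falls and 22.0% of the rises. With a pseudocount of 0.1 in place of 1 these medians were 1.90 for the falls and 1.50 for the rises. The libraries of the ages did not overlap in 972 of the rises and 2004 of the falls, where 66.7% of all gene models tested did not overlap. Quantile normalization shifted the median difference over the whole table from 0.00 to 0.11 (log2) and the rising share of the calls from 33.1% to 42.1%. With no minimum difference the directions were nearly even, with 4345 rises and 4439 falls (49.5% rising). The excess of falls was thus among differences of at least 1.

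Many gene models differed little between the first and last ages on the log2(FPKM + 1) scale. The means of the middle ages do not enter this comparison, so it does not show whether levels held steady between the ends. The 95% interval of the log2 difference lay wholly between -1 and 1 for 8671 gene models, 61.7% of those tested, and within -0.5 and 0.5 for 3343. Of the 8671, 4090 differed between the ages at an adjusted p under 0.05 (limma) with a difference this small. For another 2359 gene models, which were not called, the interval reached past -1 or 1, so a change of that size was neither called nor bounded by these libraries.

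The called gene models took up very different parts of the transcript pool at the ends of the course. The rises held 11.3%, 9.63% and 9.75% of the summed FPKM in the 40-day libraries a, b and c, and 31.9%, 31.7% and 30.3% in those of 80 days. The falls held 25.03%, 26.7% and 28.7% at 40 days and 6.16%, 5.84% and 4.95% at 80 days. These contrasts follow from the way the gene models were called and are given as a description of size only. The gene models tested but not called held 62.7% ± 1.15 (SD, n = 3) at 40 days and 62.9% ± 1.49 at 80 days. In the 50- and 60-day libraries, whose means do not enter the contrast, the rises held 20.6% to 26.2% and the falls 8.07% to 15.6%.

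**Figure D1:**
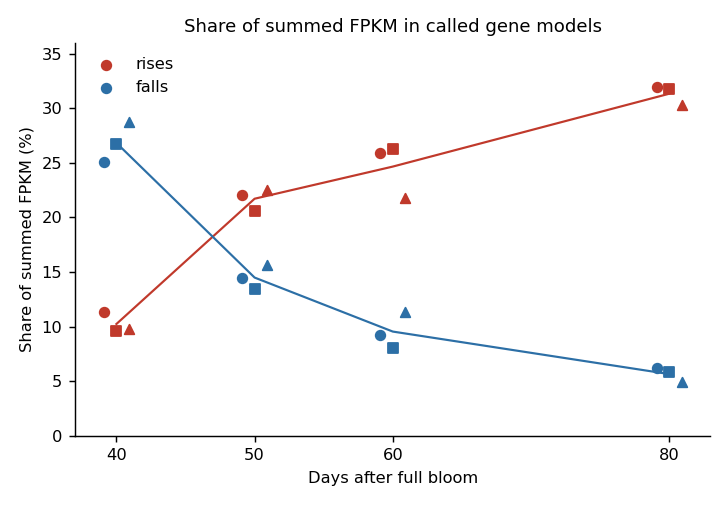
Share of the summed FPKM of each library (y axis, percent) held by the gene models that rose (red) or fell (blue) from 40 to 80 days, against age in days after full bloom. Points are libraries (circle a, square b, triangle c, set slightly apart) and lines join the age means. The rises go from 10.2% to 31.3% and the falls from 26.8% to 5.65%, with the 50- and 60-day libraries between.

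The largest shifts in abundance came from a few very abundant gene models. Among called gene models without overlap between the ages, VIT_19s0090g01370 and VIT_05s0049g00760 gained the most in mean FPKM, and VIT_19s0014g02740 and VIT_18s0072g00380 lost the most. For each of the gaining pair, 1 other identifier of the same block was among the 10 most abundant gene models, and near-identical copies can share reads. Without the gaining pair the rises still held 6.90% ± 0.630 (SD, n = 3) of the summed FPKM at 40 days and 21.9% ± 1.22 at 80 days. Without the losing pair the falls held 19.2% ± 0.538 and 4.03% ± 0.236.

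VIT_19s0090g01370 stood at 6823, 7454 and 11033 FPKM in the 40-day libraries a, b and c, and at 61634, 55912 and 37770 FPKM in those of 80 days. Each 80-day library was above each 40-day library, and the 80-day replicate c was the lowest of its age. The log2 difference was 2.62 ± 0.326 (SE; limma adjusted p = 4.58e-05). At 50 days its mean was 17010 FPKM and at 60 days 24322 FPKM, so that the gain was spread over the course. It was the 11th most abundant gene model at 40 days by mean FPKM and the 3rd at 80 days.

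VIT_05s0049g00760 had 32177, 21507 and 24350 FPKM in the 40-day libraries and 76146, 53549 and 45015 FPKM in the 80-day libraries. The ages did not overlap, and the log2 difference was 1.15 ± 0.337 (SE; limma adjusted p = 0.0114). Its course differed from that of the first gene model: the 50-day libraries already held 76324, 63016 and 91576 FPKM, a range that overlaps that of 80 days. The call was lost in 3 settings, with a log2 difference of 0.94 without 80-day replicate a and 0.60 after quantile normalization. With no filter on low levels the difference was unchanged at 1.15, but the limma adjusted p was 0.393, over a range of 0.00098 to 0.393 across the alternatives.

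VIT_19s0014g02740, the most abundant gene model of the 40-day berries, had 42476, 45677 and 68267 FPKM at that age and 7448, 5735 and 4641 FPKM at 80 days. All 80-day libraries were far below all 40-day libraries, and they differed by -3.13 ± 0.299 on the log2 scale (SE; limma adjusted p = 7.95e-06). It went from 5.05% of the summed FPKM to 0.512%. Its mean was 22437 FPKM at 50 days and 11750 FPKM at 60 days.

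VIT_18s0072g00380 had 24543, 23424 and 30792 FPKM at 40 days and 15887, 14066 and 8601 FPKM at 80 days. The ages did not overlap, but the log2 difference of -1.07 ± 0.304 (SE; limma adjusted p = 0.00986) lies near the threshold of 1. Without 40-day replicate c it was -0.95, and without 80-day replicate c it was -0.80, both under the minimum difference. With no filter on low levels it was -1.07 with a limma adjusted p of 0.116, over a range of 0.00105 to 0.116 across the alternatives.

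**Figure D2:**
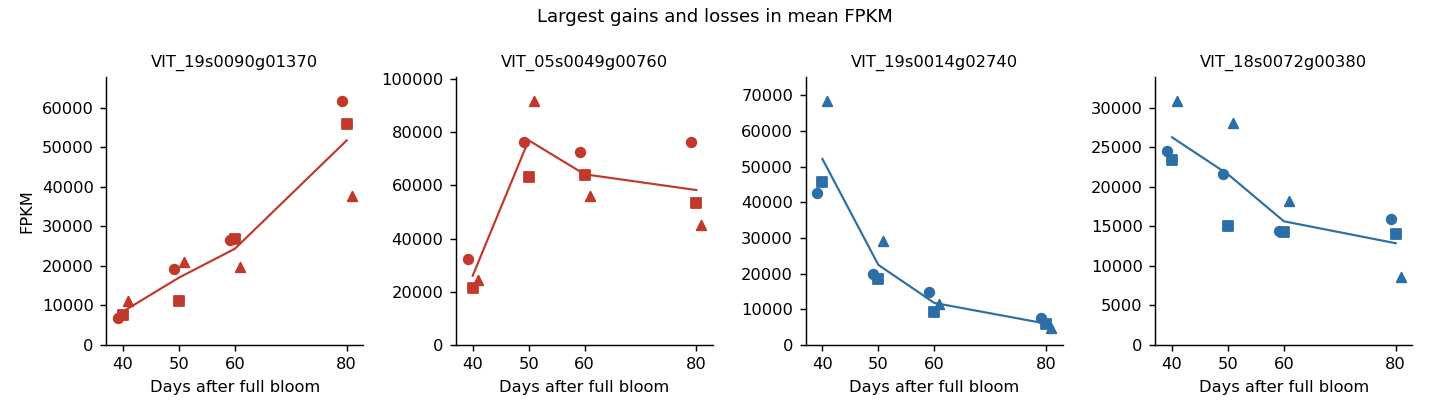
FPKM (y axes, starting at 0, scaled separately) of the gene models with the largest gains (red) and losses (blue) in mean FPKM, against age in days after full bloom. Points are libraries (circle a, square b, triangle c) and lines join the age means. VIT_05s0049g00760 has its highest age mean at 50 days, whereas the other gene models move in the same direction through all 4 ages.

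Falls outnumbered rises among gene models low at 50 and 60 days and not among those abundant then. The pattern was weaker after quantile normalization. Levels were taken from the 50- and 60-day libraries. Their means do not enter the difference between 40 and 80 days, but the levels already carry part of the change. By 60 days the falls had covered a median of 73.0% of their log2 difference and the rises 64.2%. Falls are thus classed nearer their low end and rises nearer their high end, which favours falls in low classes and rises in high ones. How much of the pattern comes from this was not tested. At 3 to 10 FPKM, the class held 3411 gene models, of which 195 rose and 598 fell. In the class of 10 to 30 FPKM, with 3902 members, there were 245 rises and 413 falls. From 30 to 100 FPKM the directions were nearly even, with 216 rises and 230 falls among 2860. From 100 to 300 FPKM there were 117 rises and 93 falls among 1023. From 300 to 1000 FPKM there were 41 and 36 among 338, and at 1000 FPKM or more 23 rises and 15 falls among 87.

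The class median of the log2 difference, called or not, went from -0.23 at 1 to 3 FPKM to 0.05 at 10 to 30 FPKM and 0.43 at 1000 FPKM or more. The lowest class, under 1 FPKM at the middle ages, had 50 rises and 255 falls among 545. Its members had to reach 1 FPKM in 3 of the 40- and 80-day libraries to be tested, so most of them could only enter by being higher at an end. The trend of the medians depended on the scaling. After quantile normalization the class medians changed sign to 0.09 at 1 to 3 FPKM and 0.12 at 3 to 10 FPKM, and those from 1 to 300 FPKM lay between 0.09 and 0.13. The 3 to 10 FPKM class still had more falls than rises then, 467 against 317. The 100 to 300 FPKM class had 98 rises and 99 falls and the 300 to 1000 FPKM class 32 and 37. Rises exceeded falls under that scaling only at 1000 FPKM or more, with 21 against 15 among 87.

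**Figure D3:**
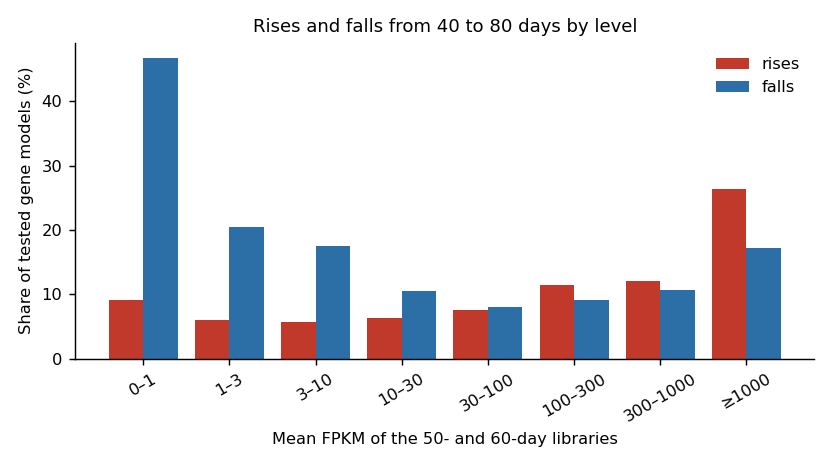
Share of tested gene models (y axis, percent) that rose (red bars) or fell (blue bars) from 40 to 80 days, by the mean FPKM of the 6 libraries of 50 and 60 days (x axis, classes). These class levels already carry part of the change. Falls are 17.5% and rises 5.72% of gene models at 3 to 10 FPKM, against 17.2% and 26.4% at 1000 FPKM or more; after quantile normalization the excess of rises at 100 to 1000 FPKM was gone.

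The most abundant transcripts turned over in part. When each library's 100 most abundant gene models were listed, 88 to 92 were shared between libraries of 40 days and 86 to 88 between libraries of 80 days. Between a 40-day and an 80-day library, 60 to 70 were shared over the 9 pairs, fewer than in any pair within an age. By mean FPKM, 66 gene models were among the first 100 at both ages. Of the 100 first at 40 days, 33 fell and 11 rose, and of the 100 first at 80 days, 28 rose and 8 fell, where 7.13% of all gene models tested rose and 14.4% fell. Since each list was chosen by the level at an age compared, falls in the first and rises in the second are favoured by the choice, and nothing is read from these counts.

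At the detection end, 552 gene models were at 1 FPKM or more in every 40-day library and in none of 80 days, and 196 showed the opposite pattern. These passed the filter through a single age and had to differ, so their numbers are given as a description. Most of them were weakly expressed where they were present, with a median of the age means of 2.74 FPKM at 40 days and 2.12 FPKM at 80 days. A mean of 10 FPKM was reached by 57 of the former and 18 of the latter. Of the 552, 425 were called as falls, and of the 196, 113 were called as rises.

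The middle ages show when such gene models crossed 1 FPKM. Of the 552 found at 40 and not at 80 days, 178 were still at 1 FPKM or more in every 50-day library and 83 in every 60-day library. No library reached 1 FPKM for 153 of them at 50 days and for 240 at 60 days. Of the 196 found at 80 and not at 40 days, 55 were at 1 FPKM or more in every 50-day library and 104 in every 60-day library.

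The 60-minus-50-day difference uses none of the libraries whose means make up the 80-minus-40-day difference, although all 12 share the estimate of the spread behind the calls. From 50 to 60 days, 158 gene models rose, 1.12% of those tested, and 368 fell, 2.62% (same limma fit and thresholds). Among the 1002 rises of the whole course, 82 (8.18%) also rose between 50 and 60 days and 10 fell. Among the 2028 falls, 274 (13.5%) also fell between 50 and 60 days and 11 rose. With each contrast fitted to its own 6 libraries, so that no library enters both, the numbers were 80 of 988 rises and 257 of 2019 falls. Leaving out each 50- or 60-day library in turn gave 57 to 101 for the rises and 149 to 332 for the falls, the lowest without 60-day replicate b.

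Without regard to a threshold, the 60-day mean was above the 50-day mean for 77.7% of the rises and below it for 80.7% of the falls. Over all gene models tested, 51.3% were above. The age means moved in a single direction through all 4 ages in 642 of the rises and 1315 of the falls. In 192 of the rises (19.2%) and 388 of the falls (19.1%), a middle age lay outside the range of the 40- and 80-day means, beside 53.2% of all gene models tested. Calling by a large difference between the ends favours middle ages within their range, so nothing is read from this contrast.

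**Figure D4:**
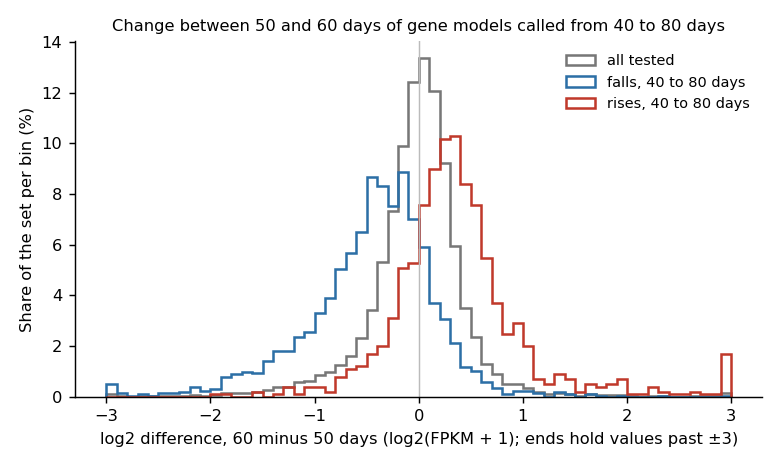
Distribution of the log2 difference between 60 and 50 days (x axis, log2(FPKM + 1) scale) for gene models that rose (red) or fell (blue) from 40 to 80 days and for all 14060 tested (grey), as percent of each set per bin (y axis). The medians are 0.31 for the rises, -0.39 for the falls and 0.01 for all gene models tested.

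The share of the log2 difference covered by the middle ages varied between gene models. By 60 days, 946 of the falls (46.6%) and 325 of the rises (32.4%) had covered at least 75% of their log2 difference. With a pseudocount of 0.1 the shares were 40.6% and 35.3%, so the gap between directions narrowed. At 50 days 281 of the rises (28.04%) and 327 of the falls (16.1%) had covered under 25%. These shares use the same 40- and 80-day means as the calls. How much of their variation comes from the spread among libraries was not tested.

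Libraries of an age differed in their median place between the 40- and 80-day means, and the cause of these offsets was not tested. Each 40- and 80-day library was placed on the scale from the 40-day mean (0%) to the 80-day mean (100%) with the gene models called without it. The 40-day replicate a lay at a median of 10.6% for the rises and 12.9% for the falls. The 40-day replicate c lay on the other side of the start, at -5.87% and -5.50%, and replicate b was near 0 at 1.37% and -0.656%.

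At 80 days, replicate a lay at 89.8% for the rises and 94.3% for the falls, replicate b at 93.9% and 95.4%, and replicate c at 106% and 105%. The 50-day libraries were at 39.3% to 46.9% for the rises and 45.2% to 55.0% for the falls. Replicates a and b of 60 days were at 68.3% and 71.2% for the rises, whereas replicate c was at 55.2%. The same order held for the falls, with 77.3%, 83.0% and 60.2%. The ages did not overlap in either direction.

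**Figure D5:**
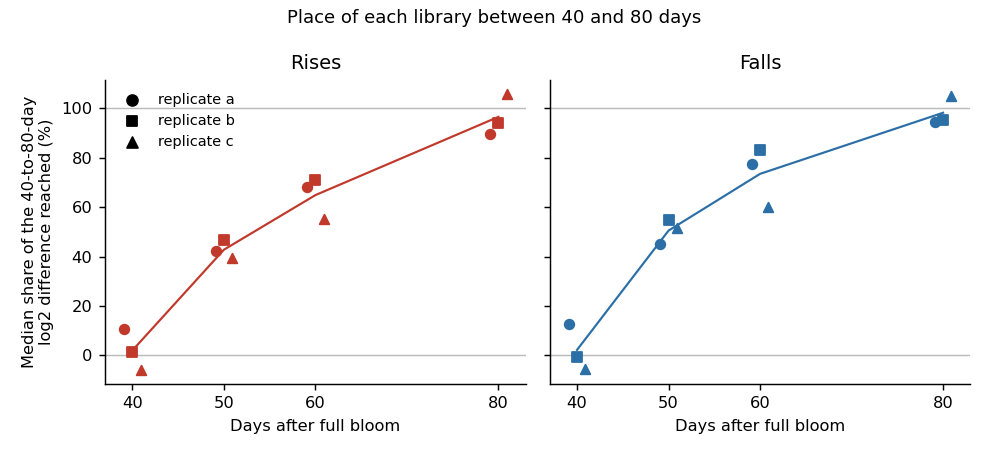
Median share of the 40-to-80-day log2 difference reached by each library (y axis, percent), for gene models that rose (left) or fell (right), against age in days after full bloom. Points are libraries by replicate letter and lines join the age means. For 40 and 80 days each library was placed with gene models called, and age means taken, without it. The libraries farthest from the others of their age are replicate a at 40 days and replicate c at both 60 and 80 days (106% for the rises at 80 days, against 89.8% and 93.9%).

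Calls were spread over the whole identifier range. The 2 digits after VIT_ group the identifiers into 20 numbers. By these numbers, rises were 4.71% (VIT_06) to 8.58% (VIT_18) of the gene models tested, beside 7.13% over all. Falls were 10.7% (VIT_15) to 18.0% (VIT_02), beside 14.4% over all. In each of the 20, falls outnumbered rises. The table's new gene models, without a VIT_ identifier, gave 25 rises and 38 falls among 289 tested.

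Within this range, identifiers fall into blocks by the 4 digits that follow. Of the 146 blocks with at least 10 tested gene models, 18 held more rises than falls. The blocks named here were chosen by these counts after the values were seen, and no test was made. The shares over all gene models tested were 7.13% rising and 14.4% falling. In VIT_00s0179, 5 of 13 gene models rose and 1 fell, and in VIT_13s0158, 5 of 18 rose and 0 fell. In VIT_19s0093, 5 of 13 fell and 0 rose, and in VIT_02s0154, 10 of 33 fell and 5 rose. VIT_12s0057 held 18 rises and 11 falls among 74, and 10 of these rises form a single run of neighbouring identifiers, described below.

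Most called gene models with a VIT_ identifier had no neighbour in their block called in the same direction, with 774 rises and 1362 falls standing alone. The new gene models were left out of this count. Over all gene models tested 7.13% rose and 14.4% fell, and how many would stand alone at these shares was not worked out. Runs of at least 4 neighbouring tested identifiers called alike numbered 3 for rises, with 18 members, and 12 for falls, with 51 members. Neighbouring gene models can be near-identical copies, and how the authors' counting split reads between such copies is not stated.

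The longest run of rises had 10 members in VIT_12s0057. Its median level was 0.745, 1.08 and 1.61 FPKM in the 40-day libraries a, b and c and 160, 60.6 and 181 FPKM in those of 80 days. At 50 days the median was still 3.14, 4.08 and 3.54 FPKM, and at 60 days it was 89.7, 66.1 and 66.3 FPKM. The 80-day replicate b was thus well under the other 80-day libraries and under every 60-day library, though far above every 40-day library. The log2 differences of the members ran from 3.02 to 6.62 with a median of 5.68. The longest run of falls had 6 members in VIT_12s0028, of which 5 did not overlap between the ages. Its median level was 35.0, 34.4 and 38.8 FPKM at 40 days and 10.2, 12.2 and 11.2 FPKM at 80 days, with a median log2 difference of -1.43. At 50 days this run was still at 25.5 to 34.7 FPKM. A run of 5 falls in VIT_14s0128 had median levels of 2.63, 4.67 and 5.27 FPKM at 40 days and 0.749, 1.21 and 0.717 FPKM at 80 days.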

How the data were processed

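The authors deposited 1 table of FPKM values with 12 library columns, each matched to its sample by the library code in the labels. Trimmomatic 0.36, FastQC, TopHat2, Cufflinks and edgeR had been used, in roles that were not stated, per the submitters' processing notes. Build, annotation and filters were not given in the sources used here. Values were taken as log2(FPKM + 1), with no further scaling, so differences of low gene models are understated. With limma 3.58.1 (R 4.3.3, trended prior variance), 4 age means were estimated from the 12 libraries, with adjustment over the 14060 gene models tested. The fit was tested on simulated data. The 4 gene models printed by identifier were those called, without overlap between the ages, with the 2 largest gains and 2 largest losses in mean FPKM. This rule and the level, block and run descriptions were chosen with earlier results of these data known. The alternatives were a pseudocount of 0.1, other filters and scalings, no minimum difference, a fit to the 6 libraries, limma without a trend, a replicate block and each library left out.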

Additional observations from a re-analysis of the deposited data

How the results depend on the processing

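The counts of called gene models, of rises and of falls stayed within 1.5 times their value under every alternative run except no minimum difference, which gave 8784 calls, 4345 rises and 4439 falls. No call turned direction under any alternative. At least 86.9% of the calls were kept, except that a minimum mean of 5 FPKM, by which 10672 gene models were tested, kept 71.1%. Leaving out each 40- or 80-day library gave 2852 to 3157 calls. With the replicate letter as a block (replicate block), 3026 gene models were called, 1001 rising and 2025 falling. Deviations of same-letter libraries of 40 and 80 days correlated at 0.032, 0.167 and -0.052, and those of different letters at -0.167 to 0.137. Deviations from the mean of 3 libraries are bound to one another, so these values cannot decide whether the letters pair the libraries. Of the 60 values for the 4 gene models printed by identifier, 54 stayed past the threshold, and the 6 others are given in the report; all 4 are among the 10 most abundant and have no value where those were removed. The cause of the higher adjusted p with no filter was not tested. The counts also called from 50 to 60 days, chosen after seeing the data, were 748 rises and 842 falls with no minimum difference, and, with a 50- or 60-day library left out, 149 falls (60-day replicate b left out) to 332 (60-day replicate c). For lack of product names, the 26 planned gene lists were not run. Without counts, the part of counting error in the spread of low gene models could not be told apart.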
